A study of Mus musculus with 12 samples.

Results

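miR-34a-5p and miR-210-3p are stress-induced microRNAs, and they were taken here by name (mmu-miR-34a-5p and mmu-miR-210-3p), as 2 of the 932 rows of a table of small RNA reads from mouse heart mitochondria. The mitochondria came from 6 db/db samples and 6 wild-type (WT) samples, numbered 1 to 6 in each genotype. db/db mice carry a loss-of-function mutation of the leptin receptor and become obese and diabetic. No age, sex, treatment or background strain was given in the labels, and no other fraction of the heart was among the 12 libraries. Whether each number is a separate animal is not stated, and the p-values below cover only the scatter of these preparations, part of which may be technical.

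MicroRNAs guide Argonaute proteins to messenger RNAs through the seed, the bases near the 5′ end that pair with the target. The Mir34a gene is a direct target of the transcription factor p53 and is induced by DNA damage and senescence. In the mouse heart miR-34a is known to rise with age and to lower, among others, the deacetylase SIRT1. Mir210 is a direct target of the hypoxia-inducible factor HIF-1α. miR-210-3p represses the iron-sulfur cluster scaffold proteins ISCU, which mitochondria need to assemble respiratory complexes.

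The mature sequences of both members and of the other arm of each precursor are shown because the seeds set which microRNAs can act together and because the arms are counted separately below. They are from RefSeq (GRCm38.p6), 5′ to 3′, with the seed, bases 2 to 8, in capitals.
miR-34a-5p: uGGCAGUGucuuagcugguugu
miR-34a-3p: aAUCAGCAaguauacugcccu
miR-210-3p: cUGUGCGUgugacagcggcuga
miR-210-5p: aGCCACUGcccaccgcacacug
Both members are 22 bases long and their seeds differ. Of 1679 mature mouse microRNAs in that reference, 4 carried the seed of miR-34a-5p: miR-34a-5p itself, miR-34b-5p, miR-449a-5p and miR-449c-5p. Of the other 3, miR-449a-5p was listed in the expression table, and miR-34b-5p and miR-449c-5p were not. No other reference microRNA carried the seed of miR-210-3p. A reference sequence was matched for 635 of the 730 named rows. miR-34c-5p, a further member of the miR-34 family that was listed in the table, had no match. Its seed was thus not compared, and it is given by name alone.
miR-34b-5p: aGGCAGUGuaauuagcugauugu
miR-449a-5p: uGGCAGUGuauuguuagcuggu
miR-449c-5p: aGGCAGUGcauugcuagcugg
Counted position by position from the 5′ end, miR-449a-5p matched miR-34a-5p at 15 of 22 bases and miR-34b-5p matched it at 11 of 22.

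The hairpins show where each member lies in its precursor. Both mature arms are in capitals, the 5p arm first.
Mir34a: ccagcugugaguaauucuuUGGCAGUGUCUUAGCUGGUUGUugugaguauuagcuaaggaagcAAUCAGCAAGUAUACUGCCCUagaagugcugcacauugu
Mir210: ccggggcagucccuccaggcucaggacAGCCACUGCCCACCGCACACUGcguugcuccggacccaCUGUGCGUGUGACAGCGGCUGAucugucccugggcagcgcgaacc
Mir34a lies on the plus strand of chromosome 4, and the GENCODE M21 annotation of GRCm38 places it in an exon of the unclassified transcript Gm37795 on the same strand. Mir210 lies on the minus strand of chromosome 7 and overlaps no other gene in that annotation. Its nearest protein-coding neighbour is Rassf7, on the opposite strand. The deposited table used GRCm39, so no coordinates are given.

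Values are in RPM (reads of a row scaled to an equal total in each library), with 412749 to 1382046 reads recovered per library, so that 3 reads, the limit that a count of 0 allows, stand for 2.17 to 7.27 RPM. The fewest reads were in db/db library 6, which, with WT library 4, an earlier analysis of these data had set apart; values without them are given where they bear on a result. The heart muscle list of 5 microRNAs summed to 337990 to 439550 RPM in db/db and 366760 to 420530 RPM in WT libraries. The red blood cell list of 4 spanned 18284 to 30731 RPM in db/db and 9935 to 21146 RPM in WT libraries. The fibroblast and smooth muscle list of 6 spanned 27173 to 44270 RPM in db/db and 37570 to 52840 RPM in WT libraries. The leukocyte list of 5 spanned 2982 to 6769 RPM in db/db and 3308 to 5171 RPM in WT libraries, and the endothelial list of 2 spanned 15588 to 25095 RPM in db/db and 18852 to 29569 RPM in WT libraries. The epithelial list, of which 5 of 6 were listed, reached at most 105 RPM in db/db and 107 RPM in WT libraries, and the liver microRNA miR-122-5p reached at most 22.0 RPM in db/db and 27.5 RPM in WT libraries. No tested member of these lists passed the limma test between genotypes, against 0.155% of all 646 rows, and 3 of the epithelial rows were tested. The median log2 fold change was -0.25 for the heart muscle, 0.40 for the red blood cell and -0.35 for the fibroblast and smooth muscle list. It was 0.16 for the leukocyte, -0.21 for the endothelial and 0.18 for the epithelial list, against -0.04 over all rows. The part of these cell types in the values below was not tested.

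miR-34a-5p was the more abundant member. It stood at 554, 490.5, 545, 333, 455 and 451 RPM in db/db libraries 1 to 6, against 304, 426, 466, 259, 380.2 and 252 RPM in WT libraries 1 to 6. The genotypes overlapped: 3 db/db libraries lay above the highest WT library, 3 WT libraries lay below the lowest db/db library, and 5 of 6 db/db libraries lay above the WT median. Its counts were 186 to 629 reads per db/db library and 143 to 373 reads per WT library. miR-34a-5p averaged 472 ± 80.5 RPM in db/db and 348 ± 89.5 RPM in WT libraries (SD, n = 6 each).

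Its log2 fold change was 0.46 ± 0.21 (SE), or 1.37-fold with a 95% interval of 1.03 to 1.83, on the log2(RPM + 1) scale. The unadjusted limma p was 0.0303, the 38th smallest of the 646 rows tested, and the limma adjusted p was 0.505, so the difference did not pass. Over all 646 rows limma called 1 (0.155%), and it called 0 of the 2 members. At an unadjusted p under 0.05 it had 58 rows (8.98%), 28 of them higher in db/db (4.33%), and miR-34a-5p was 1 of these. On the recovered reads edgeR called 3 of 646 rows (0.464%), 2 higher (0.31%) and 1 lower in db/db. DESeq2 adjusted p for 145 rows and called 13 (8.97%), 10 higher (6.9%) and 3 lower in db/db (2.07%). miR-34a-5p was in neither set, with an edgeR adjusted p of 0.135 and a DESeq2 adjusted p of 0.0823. In such preparations a change in the share of a cell type and a change in the microRNA per cell cannot be told apart.

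**Figure D1:**
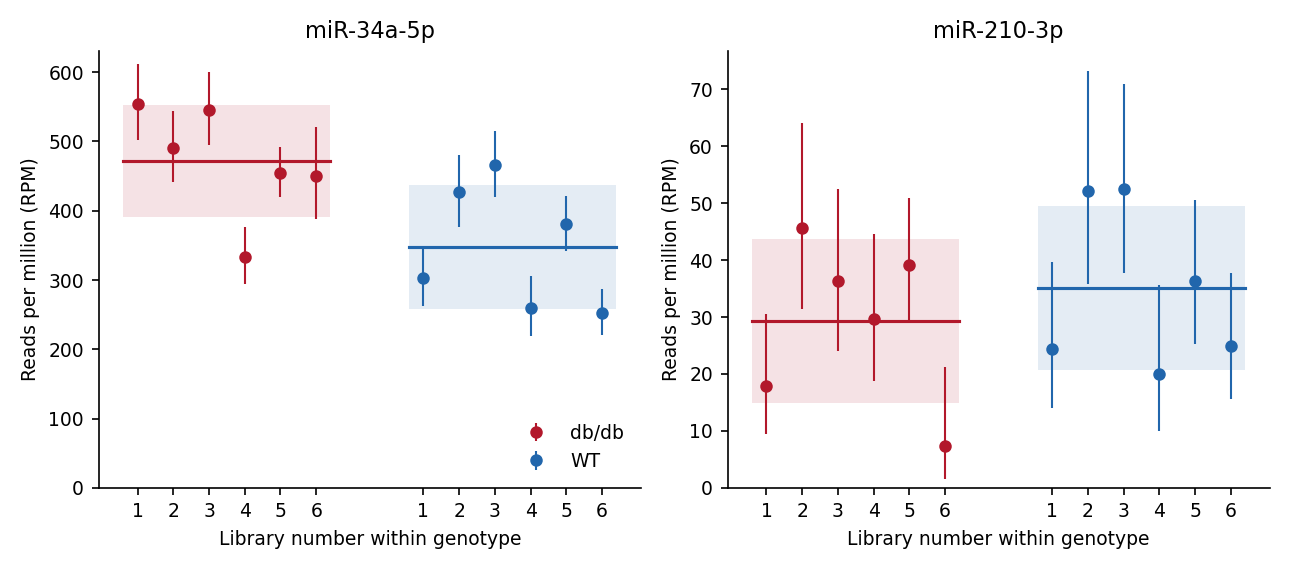
Level of miR-34a-5p (left) and miR-210-3p (right) in RPM in each library, numbered 1 to 6 within db/db (red) and WT (blue). Points are libraries with 95% exact Poisson intervals of their counts, lines are genotype means and bands are 1 SD; miR-34a-5p averaged 472 RPM in db/db and 348 RPM in WT libraries, and miR-210-3p 29.3 RPM in db/db and 35.0 RPM in WT libraries.

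In both genotypes miR-34a-5p averaged less in libraries 4 to 6 (413 RPM in db/db and 297 RPM in WT) than in 1 to 3 (530.0 RPM in db/db and 398 RPM in WT). The labels name no batch, and this grouping by number was picked from these data in an earlier analysis. With genotype in the model the difference of 4 to 6 minus 1 to 3 was -0.40 ± 0.19 for miR-34a-5p (log2, SE; limma adjusted p = 0.427) and -0.59 ± 0.50 for miR-210-3p (limma adjusted p = 0.671), and neither passed. Among numbers 1 to 3 the db/db libraries held 490.5 to 554 RPM and the WT libraries 304 to 466 RPM, with no overlap. Among numbers 4 to 6 the db/db libraries held 333 to 455 RPM and the WT libraries 252 to 380.2 RPM, with overlap. The log2 fold change of db/db over WT was 0.43 within 1 to 3 (limma adjusted p = 0.775) and 0.49 within 4 to 6 (limma adjusted p = 0.770).

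miR-210-3p was scarce. It stood at 17.9, 45.6, 36.3, 29.7, 39.1 and 7.27 RPM in db/db libraries 1 to 6, against 24.4, 52.1, 52.4, 19.9, 36.4 and 25 RPM in WT libraries 1 to 6. The genotypes overlapped over most of their range, with db/db libraries 1 and 6 below every WT library and no db/db library above the highest WT one. The values rested on 13, 33, 28, 23, 54 and 3 reads in db/db libraries 1 to 6 and on 11 to 42 reads in WT libraries. The 3 reads of db/db library 6 give a 95% Poisson interval of 1.5 to 21.2 RPM, which covers counting error alone, as do the binomial intervals of arm shares given below.

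miR-210-3p averaged 29.3 ± 14.3 RPM in db/db and 35.0 ± 14.4 RPM in WT libraries (SD, n = 6 each). Its log2 fold change was -0.36 ± 0.50 (SE; limma adjusted p = 0.770), or 0.782-fold with a 95% interval of 0.391 to 1.56. The interval held both lower and higher levels in db/db, so these libraries did not settle a direction. The smallest difference that they could have detected was not worked out. Without db/db library 6 the db/db mean was 33.7 ± 10.5 RPM (SD, n = 5) and the log2 fold change was -0.02 (limma adjusted p = 0.996). Within numbers 1 to 3 the log2 fold change was -0.38 and within 4 to 6 it was -0.33.

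miR-34a-5p varied about as much between libraries as other microRNAs of like level, and miR-210-3p varied less than most of its own level. miR-34a-5p had a coefficient of variation of 17.1% in db/db and 25.7% in WT libraries, where counting alone would give 5.47% in db/db and 6.29% in WT. On the log2 scale its SD within genotypes was 0.32, against a median of 0.35 for the 52 named rows within 2-fold of its mean, 23 of which varied less. miR-210-3p had a coefficient of variation of 48.9% in db/db and 41.1% in WT libraries, against 20.6% in db/db and 19.7% in WT from counting. Its SD within genotypes was 0.78, or 0.55 without db/db library 6. The median was 0.97 for the 77 rows within 2-fold of its mean, 23 of which varied less than 0.78.

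In the order of levels miR-34a-5p ranked 95th of the 730 named rows by its mean of 410 RPM, between 82nd and 112th in single libraries. The rows next above it were miR-322-3p (418 RPM) and miR-425-5p (422 RPM), and those next below were miR-361-5p (372 RPM) and miR-148a-3p (363 RPM). miR-34a-5p was the higher of each pair in 6 to 8 of 12 libraries, so these 4 neighbours were not separated from it beyond the spread. miR-210-3p ranked 210th with a mean of 32.2 RPM, between 185th and 307th in single libraries. Its neighbours miR-350-3p (33.9 RPM) and miR-3535 (34.4 RPM) above and miR-425-3p (31.6 RPM) and miR-340-3p (30.9 RPM) below were also not separated from it, since miR-210-3p was the higher in 4 to 7 of 12 libraries. RPM carries no length term; both members have the same length, but ligation can favour some small RNAs over others, so their levels are compared with that limit.

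The arms of the miR-34a hairpin were very unequal. miR-34a-3p had 5 reads in all db/db libraries together, every one of them in library 2, and 6 reads in all WT libraries, in libraries 1 and 5. The 5p arm thus held 99.8% of miR-34a reads in db/db (95% exact binomial interval 99.5 to 99.9) and 99.6% in WT libraries (99.2 to 99.9). miR-34a-3p was at 0 in 5 of 6 db/db and 4 of 6 WT libraries, and no size is read from its fitted fold change because both genotype means lay under the worth of 3 reads.

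The arms of miR-210 were less unequal, and 1 library went the other way. miR-210-3p held 154 of 181 miR-210 reads in db/db (85.1%, 95% exact binomial interval 79.0 to 89.9) and 159 of 187 in WT libraries (85.0%, 79.1 to 89.8). Single libraries ran from 20 to 100% in db/db, with a median of 88.4%, and from 66.7 to 100% in WT, with a median of 87.2%. In db/db library 6 the order of the arms was turned round, with 3 reads of miR-210-3p and 12 of miR-210-5p, a 3p share of 20% (4.33 to 48.1). Without that library the db/db share was 91.0% (85.5 to 94.9). miR-210-5p averaged 7.80 ± 11.0 RPM in db/db and 6.45 ± 6.95 RPM in WT libraries (SD, n = 6 each), was at 0 in 2 libraries of each genotype, and differed by 0.08 ± 1.05 between genotypes (log2, SE; adjusted p from limma 0.987). The sign of that value turned under several alternatives, among them the one without db/db library 6 (-0.48).

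**Figure D2:**
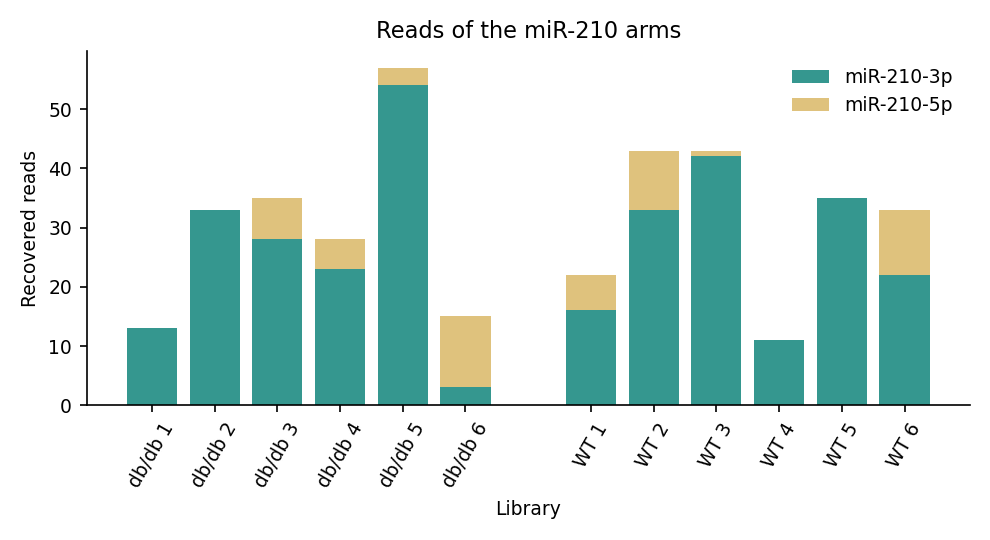
Recovered reads of miR-210-3p (teal) and miR-210-5p (sand), stacked, in db/db libraries 1 to 6 and WT libraries 1 to 6. The 3p arm is the larger in every library but db/db 6, where 12 of 15 reads are miR-210-5p.

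The other miR-34 family rows were sparse, and none passed the test. miR-34c-5p, from a cluster with miR-34b on chromosome 9, stood at 15.1, 12.4, 45.3, 22.0, 38.3 and 19.4 RPM in db/db libraries 1 to 6, against 0, 22.1, 12.5, 3.63, 20.8 and 37.5 RPM in WT libraries 1 to 6. The genotypes overlapped, with 2 db/db libraries above the highest WT library and 2 WT libraries below the lowest db/db one. Its means were 25.4 ± 13.3 RPM in db/db and 16.1 ± 13.7 RPM in WT libraries (SD, n = 6 each), and the log2 difference of db/db minus WT was 1.21 ± 0.72 (SE; adjusted p from limma 0.717). miR-34b-3p was above 0 in 2 db/db and 4 WT libraries and averaged 1.56 ± 2.67 RPM in db/db and 9.11 ± 9.88 RPM in WT libraries (SD, n = 6 each; limma adjusted p = 0.717). miR-449a-5p, a microRNA of ciliated epithelium, had 1 read in db/db library 6 and none elsewhere, and miR-34c-3p had 5 reads in WT library 5 and none elsewhere. Both lay under the filter of 1 RPM and were not tested.

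The ratio of both members spanned a wider range in db/db than in WT libraries; the difference in spread was not tested. The ratio of miR-34a-5p to miR-210-3p was 31.0, 10.8, 15, 11.2, 11.6 and 62.0 in db/db libraries 1 to 6, against 12.4, 8.18, 8.88, 13.0, 10.5 and 10.1 in WT libraries 1 to 6. db/db libraries 1 and 6 stood far above the rest, and both had few reads of miR-210-3p, 13 and 3. db/db libraries 2, 4 and 5 lay within the WT range. The mean log2 ratio, taken from RPM + 1, was 4.15 ± 0.97 in db/db and 3.33 ± 0.25 in WT libraries (SD, n = 6 each), a difference of 0.81 (exact permutation test, two-sided, p = 0.0433), and all 6 db/db libraries lay above the WT median. The difference was 0.67 without db/db library 1 (exact permutation test, two-sided, p = 0.0866) and 0.49 without db/db library 6 (exact permutation test, two-sided, p = 0.0866). It also missed the threshold without db/db 3 or without WT 2, 3, 5 or 6, each left out alone, with exact permutation p of 0.0606 to 0.0866. With same-numbered libraries taken as pairs, which the labels do not state, it missed as well (exact sign-flip permutation p = 0.0938). Apart from the added 1 RPM, a ratio within a library does not depend on how that library was scaled.

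The levels of both members were also compared across libraries. Within WT Pearson's r of their log2 levels was 0.96 (exact permutation test, p = 0.0181) and Spearman's rho 0.83 (exact permutation test, p = 0.0583), over 6 libraries and without adjustment. Within db/db r was 0.01 (exact permutation test, p = 0.988) and rho 0.14 (exact permutation test, p = 0.803), and the difference between the genotypes was not tested. Over all 12 libraries r was 0.17 (permutation p = 0.616, adjusted 0.924) and rho 0.24 (permutation p = 0.456, adjusted 0.964). Without db/db libraries 1 and 6, the 2 farthest from the median of miR-210-3p, r was 0.84 over 10 libraries (permutation p = 0.00304, unadjusted). Of these 10 libraries 6 are the WT ones above. The 2 were left out by their level of miR-210-3p, itself part of the correlation, so that p does not hold as a test. The pooled value thus depended on those 2 libraries.

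**Figure D3:**
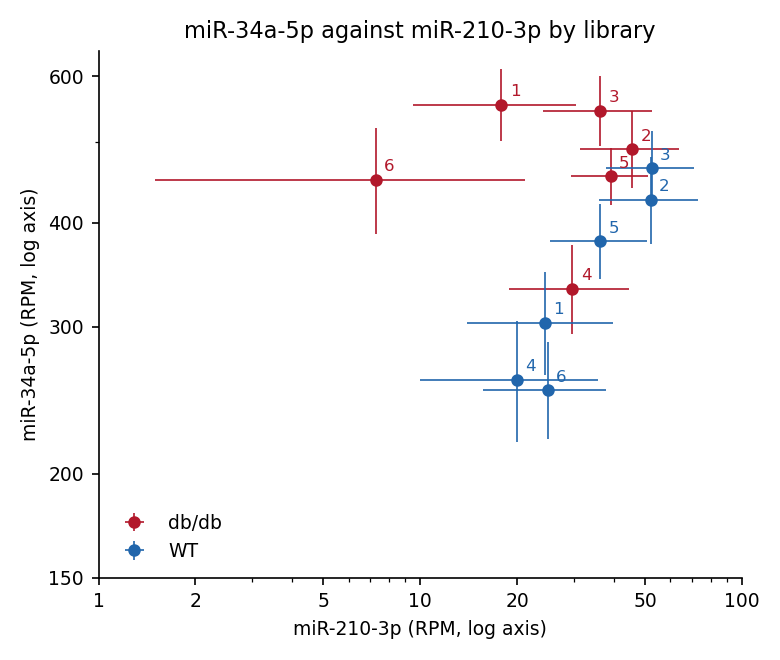
miR-34a-5p (vertical) against miR-210-3p (horizontal) in RPM on log axes, 1 point per library with its number, db/db red and WT blue, with 95% exact Poisson intervals of the counts. The WT points lie along 1 line (r = 0.96), and db/db 1 and 6 lie to its left with 17.9 and 7.27 RPM of miR-210-3p.

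In the same family of 3 relations the arms of each hairpin gave no correlation that passed. For miR-34a-5p and miR-34a-3p r was -0.00 (permutation p = 0.997, adjusted 0.997) and rho -0.02 (permutation p = 0.964, adjusted 0.964) over 12 libraries, and without db/db 2 and WT 5, the farthest on miR-34a-3p, r was -0.30. For miR-210-3p and miR-210-5p r was -0.28 (permutation p = 0.400, adjusted 0.924) and rho -0.13 (permutation p = 0.684, adjusted 0.964), and without db/db 1 and 6 r was -0.04. With most or several libraries at 0 for the minor arms, these values are no finding.

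The likeness of other levels was taken over named rows averaging 100 RPM or more. The levels most like miR-34a-5p over the 12 libraries belonged to miR-128-3p (Pearson's r of log2 levels 0.84), miR-31-5p (0.76) and miR-92a-3p (0.75), the best of 145 rows. They share library totals with it, and r is given as a description. Within db/db r was 0.55 for miR-128-3p, 0.46 for miR-31-5p and 0.69 for miR-92a-3p. Within WT it was 0.87, 0.63 and 0.55 in that order. These rows were picked over both genotypes together, so fold changes of the same sign as that of miR-34a-5p are partly built in. The log2 fold change was 0.34 ± 0.18 for miR-128-3p, 0.59 ± 0.21 for miR-31-5p and 0.51 ± 0.15 for miR-92a-3p (SE, limma adjusted p = 0.575, 0.268 and 0.109), and none passed. Under the alternatives miR-92a-3p was called in 8 of 32, miR-31-5p in 2 and miR-128-3p in 1, all higher in db/db. For miR-92a-3p these included leaving out db/db 5 (limma adjusted p = 0.0272), WT 1 (0.0402) or WT 3 (0.0469). Most like miR-210-3p were miR-107-3p (r 0.69), miR-145a-3p (0.66) and miR-140-5p (0.62), the best of 146 rows. Within db/db r was 0.73, 0.65 and 0.86 in that order, and within WT it was 0.67, 0.62 and -0.06. For miR-140-5p the likeness was thus seen in db/db and not in WT libraries, a difference that was not tested. miR-107-3p was also in the p53 and hypoxia lists below.

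The p53 list holds microRNAs induced or processed under p53, miR-34a-5p among them. Of the 16 in the list 15 were listed in the table and 13 tested: 1 was lower in db/db (limma, against 0.155% of all rows), 0 were higher, 4 had an unadjusted p under 0.05 (8.98% of all rows did), and 4 values were positive and 9 negative. The median log2 fold change was -0.25, against -0.04 over all 646 rows, of which 308 were positive and 338 negative. Without miR-34a-5p, 3 of 12 values were positive, 3 had an unadjusted p under 0.05 and the median was -0.26. The member that passed was miR-22-3p, a p53 target abundant in heart muscle, at 11882 ± 1677 RPM in db/db and 17708 ± 3699 RPM in WT libraries (SD, n = 6 each), a log2 difference of -0.56 ± 0.13 (SE; adjusted p from limma 0.0466), a call lost in 19 of 32 alternatives. It was lost when db/db 1, 2 or 3 or WT 2, 4, 5 or 6 was left out, with limma adjusted p up to 0.311. miR-143-3p and miR-145a-5p, smooth muscle microRNAs whose processing p53 promotes, stood at -0.48 ± 0.13 (limma adjusted p = 0.0869) and -0.33 ± 0.14 (log2, SE; limma adjusted p = 0.504). miR-143-3p was called in 8 of 32 alternatives, among them those without db/db 5 (limma adjusted p = 0.0141), WT 1 (0.0202) or WT 3 (0.0469). miR-16-5p, also processed under p53, stood at -0.25 ± 0.14 (log2, SE), and miR-107-3p at -0.01 ± 0.18, a value whose sign turned under other scalings. In this list edgeR called miR-22-3p alone, against 0.464% of all rows, and so did DESeq2, against 8.97% of the rows it adjusted. Both used the same libraries as limma. DESeq2 gave no adjusted p for members such as miR-34a-3p, so it could not call them.

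In the hypoxia list limma gave no call. Of 17 members, all tested, limma called 0 in either direction, against 0.155% of all rows, and 4 had an unadjusted p under 0.05, against 8.98% of all rows. edgeR called 0, against 0.464% of all rows, and DESeq2 called 1, miR-24-3p, against 8.97% of the rows it adjusted. It gave no adjusted p for members such as miR-210-3p and miR-210-5p, so it could not call them. There were 5 positive and 12 negative values, against 308 and 338 over all 646 rows. The median log2 fold change was -0.18, against -0.04 over all rows. Without miR-210-3p, 5 of 16 values were positive and the median was -0.12. miR-21a-5p, induced by hypoxia and by cardiac stress, stood at -0.45 ± 0.15 (log2, SE; limma adjusted p = 0.198) and miR-24-3p, of the miR-23, miR-27 and miR-24 clusters, at -0.36 ± 0.12 (log2, SE; limma adjusted p = 0.198). miR-21a-5p was called in 4 of 32 alternatives, among them the one without db/db 5 (limma adjusted p = 0.0276), and miR-24-3p in 3. Of the same clusters miR-23a-3p stood at -0.23 ± 0.12 and miR-23b-3p at -0.26 ± 0.13 (log2, SE). miR-26a-5p, at 20885 RPM in db/db and 20563 RPM in WT libraries, had a log2 fold change of 0.02 ± 0.12 (SE), and miR-103-3p, made from introns of pantothenate kinase genes, of -0.05 ± 0.14 (SE), of either sign under other scalings.

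A pair of shorter lists holds microRNAs that share a known target or process with a member. Among microRNAs that lower SIRT1, 6 of 7 were tested and limma called 0, against 0.155% of all rows. An unadjusted p under 0.05 (8.98% of all rows) was found for 2, miR-34a-5p itself and miR-199a-5p. edgeR called 0, against 0.464% of all rows, and DESeq2 called 0, against 8.97% of the rows it adjusted. DESeq2 gave no adjusted p for members such as miR-132-3p and miR-138-5p, so it could not call them. The values were miR-34a-5p 0.46 and miR-9-5p 0.41 on the positive side, and miR-132-3p -0.44, miR-138-5p -0.38, miR-199a-5p -0.36 and miR-181a-5p -0.18 on the negative side (log2 fold change), with a median of -0.27. Without miR-34a-5p, 1 of 5 values was positive and the median was -0.36. Among microRNAs described to act on the respiratory chain, all 5 were tested and limma called 0, against 0.155% of all rows. An unadjusted p under 0.05 (8.98% of all rows) was found for 0. edgeR called 0, against 0.464% of all rows, and DESeq2 called 0, against 8.97% of the rows it adjusted. DESeq2 gave no adjusted p for members such as miR-210-3p, so it could not call them. All 5 values were negative, with a median of -0.29: miR-210-3p at -0.36, miR-338-3p, which lowers the cytochrome oxidase subunit Cox4i1, at -1.45 ± 0.95, miR-181c-5p, which acts on mitochondrial Cox1, at -0.29 ± 0.26, miR-1a-3p at -0.25 ± 0.14 and miR-378a-3p, made from an intron of Ppargc1b, at -0.10 ± 0.12 (log2 fold change, SE). Over all 646 rows 338 values were negative, and the direction of this list was not tested. Without miR-210-3p all 4 were negative, with a median of -0.27. miR-338-3p averaged 5.35 ± 5.76 RPM in db/db and 14.1 ± 11.6 RPM in WT libraries (SD, n = 6 each), near the worth of a few reads.

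**Figure D4:**
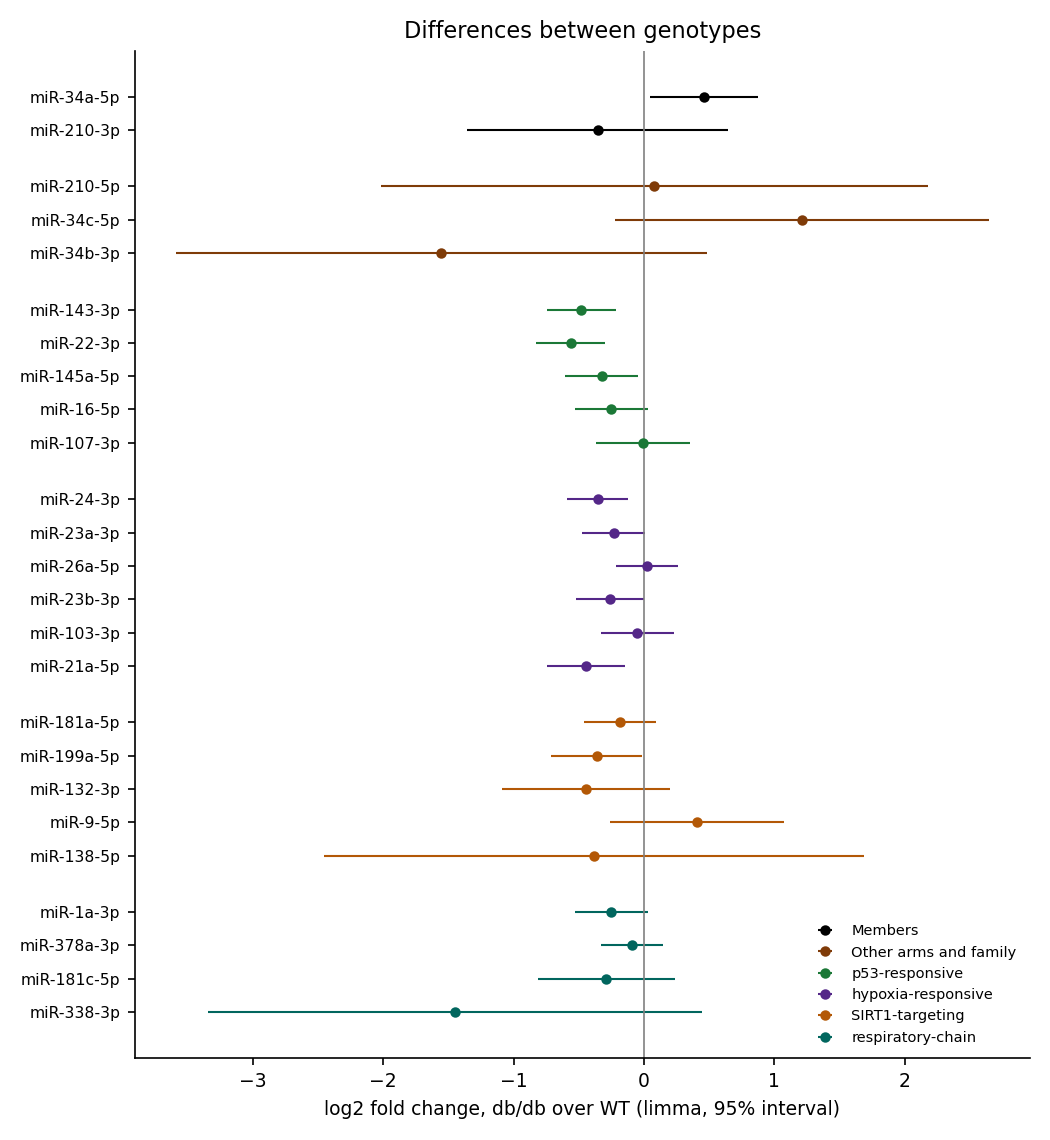
log2 fold change of db/db over WT with 95% interval (limma, log2(RPM + 1)) for both members, miR-210-5p, miR-34 family rows and the most abundant members of each list. The interval of miR-34a-5p runs from 0.05 to 0.87 and that of miR-210-3p from -1.35 to 0.64; the call that passed after adjustment is miR-22-3p at -0.56.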

How the data were processed

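Small RNA was sequenced from 6 db/db and 6 WT samples of mouse heart mitochondria. Per the labels' protocols, adapters were ligated to total RNA at both ends before reverse transcription, PCR and gel purification. The authors deposited RPM values in a table they called TPM; the columns have equal totals and equal steps for every row, with no length term. The submitters' processing notes name GRCm39; how reads were aligned, annotated and counted is not stated in the sources at hand.

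Whole reads (within 0.01 of a read) were recovered for 100% of values. No 2 libraries agreed within sampling noise (66 pairs, chi-square per degree of freedom at least 21.6). The comparison used limma 3.58.1 (R 4.3.3) with a trend on log2(RPM + 1), 646 rows averaging 1 RPM or more, no replicate block and Benjamini-Hochberg adjustment over all rows, called under 0.05. edgeR 4.0.16 and DESeq2 1.42.0 on recovered reads were alternatives; DESeq2 gave no adjusted p for miR-210-3p. The ratio was tested over all 924 assignments of libraries to genotypes. Correlations used 100000 permutations, or all within 6 libraries. Scripts were tested on simulated data and plots made with Python 3.11.15 and matplotlib 3.10.9.

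The members and lists were chosen with earlier results of these data known. Named rows were the members, their other arms, rows sharing a seed, the 6 most abundant and any called member of each list, the 3 rows most like each member, 2 neighbours in level on each side and any called row; other miR-34 family rows were added.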

Additional observations from a re-analysis of the deposited data

Results flagged for a closer look

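Of 22 groups of 6 libraries searched, 7 had a single value far from the other 5. About 1 group in 20 would by chance, that is 1.1 of them, if the groups were independent and their values normally distributed. Several groups here share the same reads or hold mostly 0, so the count of 7 cannot be read as an excess. In db/db library 6 miR-210-5p stood at 29.1 RPM, against at most 9.06 RPM in the other db/db libraries, and the 3p arm held 20% of miR-210 reads, against at least 80% in the others. In db/db library 2 miR-34a-3p stood at 6.91 RPM and was 0 in the others, which put the 5p share at 98.6%, against 100% in the others. miR-449a-5p was 2.42 RPM in db/db library 6, 1 read, and 0 in the others. miR-34c-3p was 5.19 RPM in WT library 5 and 0 in the others. Recovered reads were 1382046 in db/db library 5, against at most 773784 in the others. Groups with 5 values of 0 meet this rule with any read in the last library.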

How the results depend on the processing

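Alternatives chosen after seeing the data were edgeR with the replicate block, edgeR with a factor for numbers 1 to 3 against 4 to 6, and fits within those numbers. miR-34a-5p was not called in any of its 32 alternatives, with log2 fold changes of 0.37 to 0.55; the lowest adjusted p, 0.0823, came from DESeq2. miR-210-3p was not called in any of its 31, with values of -0.52 to -0.02. The filter at 100 RPM left it out, and DESeq2 gave it no adjusted p and so could not call it. Same-numbered libraries deviated together (correlation over 0.1 on 147 rows) in 5 of 6 pairs, and 4 of 6 db/db libraries were closest to the WT library of their number, a hint of pairing from the data. Number 4 did not (-0.02), and since the labels name nothing shared, pairing was taken only if every pair did. With the replicate block the limma adjusted p was 0.232 for miR-34a-5p and 0.725 for miR-210-3p, and the log2 ratio of both stayed 0.81 with an exact sign-flip permutation p of 0.0938. That ratio was 0.55 without WT 4 and db/db 6 (exact permutation p = 0.0556), 0.84 with a pseudocount of 0.1 RPM, 0.69 with 10 RPM, and 0.49 to 0.96 with 1 library left out. The correlation of both members was 0.84 without the 2 farthest libraries and 0.96 within WT.

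Rows called were 0 with either pseudocount, with the filter dropped or raised to 10 or 100 RPM, with named rows alone, without the abundance trend, or without WT 4 and db/db 6. They were 2 under median-of-ratios or TMM scaling, 3 with edgeR, 13 with DESeq2, 9 with the replicate block, 10 with the number factor, 11 with edgeR and the block, 9 with edgeR and the number factor, 3 within numbers 4 to 6, and 0 to 7 with 1 library left out. In the p53 list 0 were called with either pseudocount, no filter, either higher filter, either scaling, no trend, named rows alone, WT 4 and db/db 6 left out, or within numbers 4 to 6. There 2 were called, miR-22-3p and miR-143-3p, with the block or the number factor in limma or edgeR, and 0 to 2 with 1 library left out. In the hypoxia list 1 was called with DESeq2, 2 with the block, 2 with the number factor, 1 with edgeR and the block, and 0 to 1 with 1 library left out.

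Signs turned for values near 0 or few reads (log2, db/db minus WT), and the cause was not tested. miR-34a-3p, with fitted values too thinly read to size, was 0.32 within numbers 1 to 3 and -0.38 to 0.024 with 1 library left out. miR-210-5p was -0.15 with library weights, -0.89 without WT 4 and db/db 6, -1.75 within numbers 1 to 3, and -0.48 to 0.51 with 1 library left out. miR-103-3p was 0.010 under median-of-ratios scaling, 0.0052 with DESeq2, and -0.13 to 0.026 with 1 library left out. miR-107-3p was 0.051 under median-of-ratios scaling, 0.039 under TMM, 0.052 with library weights, 0.073 with edgeR, 0.082 with DESeq2, 0.12 without WT 4 and db/db 6, 0.038 with edgeR and the block, 0.069 with edgeR and the number factor, 0.018 within numbers 1 to 3, and -0.080 to 0.13 with 1 library left out. miR-26a-5p was -0.0035 without WT 4 and db/db 6 and -0.020 to 0.053 with 1 library left out, and miR-138-5p was -0.85 to 0.0097. Depth limits the values of miR-210-3p, with 3 to 54 reads per library, more than those of miR-34a-5p, with 143 to 629.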
